A study of Mus musculus with 17 samples.

Results

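The mouse mitochondrial genome (mtDNA) has 13 protein-coding genes, of which 6 specify subunits of respiratory chain complexes III and IV and of the ATP synthase, complex V. Reads were counted per gene, and the RNA of each gene is called an mRNA here. These 6 mRNAs, *mt-Cytb*, *mt-Co1*, *mt-Co2*, *mt-Co3*, *mt-Atp6* and *mt-Atp8*, were chosen by name among the protein-coding genes of chromosome MT, which has 37 genes in a table of 56748. Each was compared between 9 hMut and 8 Ctrl mouse hearts by poly(A)-selected RNA-seq. The hMut mice carried an inducible *Polg* allele in homozygous form together with 1 Ckmm-cre transgene (*Polg* iMut/iMut; +/Ckmm-cre), and the aged hMut hearts of the study came from animals of 12 to 16 months. Aged controls of that range are named in the study's heart function measurements, and the labels give no age for any library of either group. POLG is the catalytic subunit of the polymerase that replicates mtDNA. Without cre the inducible allele expresses wild-type *Polg* from a floxed cDNA cassette, and its removal by cre switches expression to a proofreading-deficient POLG. Ckmm-cre acts in striated muscle, so the fibroblasts, vessels and blood cells of a heart keep the cassette. The labels call the other group control and give neither its *Polg* genotype nor its cre status, and they give no sex for either group. Nothing in the labels names the animal behind each library, so p-values measure the spread between these samples.

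Mitochondrial genes are copied as long polycistronic RNAs that are cut, for most junctions, at the tRNAs that lie between the coding sequences, and the mRNAs are then polyadenylated. All members are read from the same strand, whereas *mt-Nd6* of complex I is read from the opposite one. The product of *mt-Cytb* is cytochrome b, the mtDNA-encoded subunit of complex III, which carries electrons from ubiquinol to cytochrome c. *mt-Co1*, *mt-Co2* and *mt-Co3* encode the core of cytochrome c oxidase, complex IV, and *mt-Atp6* and *mt-Atp8* encode membrane subunits of the ATP synthase. Heart muscle depends on these complexes for most of its ATP.

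In GRCm39 coordinates, *mt-Co1* spans MT:5328-6872 (1545 bp), *mt-Co2* MT:7013-7696 (684 bp), *mt-Atp8* MT:7766-7969 (204 bp), *mt-Atp6* MT:7927-8607 (681 bp), *mt-Co3* MT:8607-9390 (784 bp) and *mt-Cytb* MT:14145-15288 (1144 bp), each on the plus strand and each a single coding exon. *mt-Atp8* and *mt-Atp6* share 43 bases in different reading frames, and *mt-Atp6* shares 1 further base with *mt-Co3*, so 3 of the members come from one stretch with no tRNA between them. The shared bases are shown in capitals, with flanking sequence, because reads that cover them lie in both genes. Counts per gene do not show whether these genes are carried on the same mRNA.

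mt-Atp8 and mt-Atp6, MT:7915-7981, plus strand: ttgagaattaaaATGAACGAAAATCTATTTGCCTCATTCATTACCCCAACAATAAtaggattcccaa

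*mt-Co3* and *mt-Cytb* end in a single T of an incomplete stop codon, which polyadenylation completes in mitochondrial mRNAs, whereas the other members end in an encoded TAA. The last 30 bases of *mt-Cytb* and *mt-Co1* show the contrast, with the encoded bases of the stop codon in capitals.

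mt-Cytb, MT:15259-15288, plus strand: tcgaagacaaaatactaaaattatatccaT

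mt-Co1, MT:6843-6872, plus strand: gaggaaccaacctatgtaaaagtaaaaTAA

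A nuclear copy of mtDNA on chromosome 1 bears on how these mRNAs can be counted. The stretch chr1:24650616-24655269 on the minus strand matched MT:6390-11042 at 99.9% identity, with 2 mismatches and 1 gap over 4654 aligned positions. *mt-Co2*, *mt-Atp8*, *mt-Atp6* and *mt-Co3* lay wholly inside it and had the same sequence there base for base. *mt-Co1* had 483 of its 1545 bases inside it, and the substitution A6393T (the mtDNA base, its position in mtDNA, the base of the copy on the same strand) was the only mismatch among these. *mt-Cytb* lay outside it, and its most similar nuclear copy, on chromosome 4, was 92.8% identical. The left edge of the chromosome 1 copy within *mt-Co1* is shown with the differing bases in capitals. The first 60 bases of *mt-Co2*, with the start codon in capitals, show the identity further on.

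mt-Co1, MT:6370-6429, plus strand: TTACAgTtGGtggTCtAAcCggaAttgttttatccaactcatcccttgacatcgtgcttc

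copy, chr1:24655230-24655289, minus strand: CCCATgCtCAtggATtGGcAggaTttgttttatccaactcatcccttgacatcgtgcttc

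mt-Co2, MT:7013-7072, plus strand: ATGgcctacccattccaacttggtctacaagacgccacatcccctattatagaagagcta

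copy, chr1:24654587-24654646, minus strand: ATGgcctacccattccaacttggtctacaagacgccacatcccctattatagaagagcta

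The libraries held between 32915159 and 46486964 counts on genes. The members took 9.74% to 13.1% of them in the hMut hearts and 13.7% to 17.7% in the Ctrl hearts. *Polg*, the targeted gene, averaged 34.7 counts per 1000000 after TMM scaling (CPM) in Ctrl (SD 7.31, 8 hearts) and 57.9 CPM in hMut (SD 6.08, 9 hearts), a log2 difference of 0.74 (edgeR quasi-likelihood test, adjusted p = 0.000448). All 8 cardiomyocyte markers were detected, with a summed level of 39203 to 47251 CPM in Ctrl and 30047 to 45871 CPM in hMut, and none of them passed the test. The 5 fibroblast markers summed to 609 to 719 CPM in Ctrl and 640 to 791 CPM in hMut, the 5 endothelial markers to 701 to 891 and 777 to 1058 CPM, and the 8 myeloid markers to 268 to 396 and 334 to 1354 CPM. The atrial genes *Myl7* and *Sln* had at most 19 and 11 counts in any library. Among these markers *Kdr* (log2 fold change 0.39, edgeR adjusted p = 0.0407) and the atrial gene *Bmp10* (5.58, adjusted p = 3.25e-05) were called higher in hMut. *Bmp10* averaged 0.216 CPM in Ctrl and 10.6 CPM in hMut, and the other atrial gene tested, *Myl4*, was not called (0.14). The lowest cardiomyocyte sums were those of hMut 9 and hMut 6 (30047 and 31837 CPM). Sample hMut 6 held the highest myeloid sum, and it and hMut 9 had the lowest limma quality weights (0.166 and 0.299), so results are also given without hMut 6 where it moved them. In whole tissue, fewer cells of a type and less RNA per cell cannot be told apart, and the part of cell composition in the results was not tested.

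Levels per kilobase of gene spanned a wide range among mRNAs that start out on the same precursor. In Ctrl hearts *mt-Co1* was at 72836 ± 7374 CPM per kilobase and *mt-Cytb* at 34818 ± 3309, followed by *mt-Co2* at 5068 ± 963, *mt-Atp6* at 4250 ± 727, *mt-Co3* at 3610 ± 809 and *mt-Atp8* at 723 ± 307 (SD, n = 8). *mt-Co1* exceeded *mt-Cytb*, and *mt-Cytb* exceeded *mt-Co2*, in all 17 hearts. The middle of the order was not fixed: *mt-Co2* lay above *mt-Atp6* in 6 of 8 Ctrl and 8 of 9 hMut hearts, and *mt-Atp6* above *mt-Co3* in 5 of 8 and 3 of 9. *mt-Atp8* was the lowest in every heart. The members lying wholly in the chromosome 1 copy were the ones with low levels, and how reads with equal matches were counted is not stated, so the levels of these 4 are counts kept for the mtDNA gene and not the amount of mRNA. The same limit holds for the 483 of 1545 bases of *mt-Co1* that lie in the copy.

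**Figure D1:**
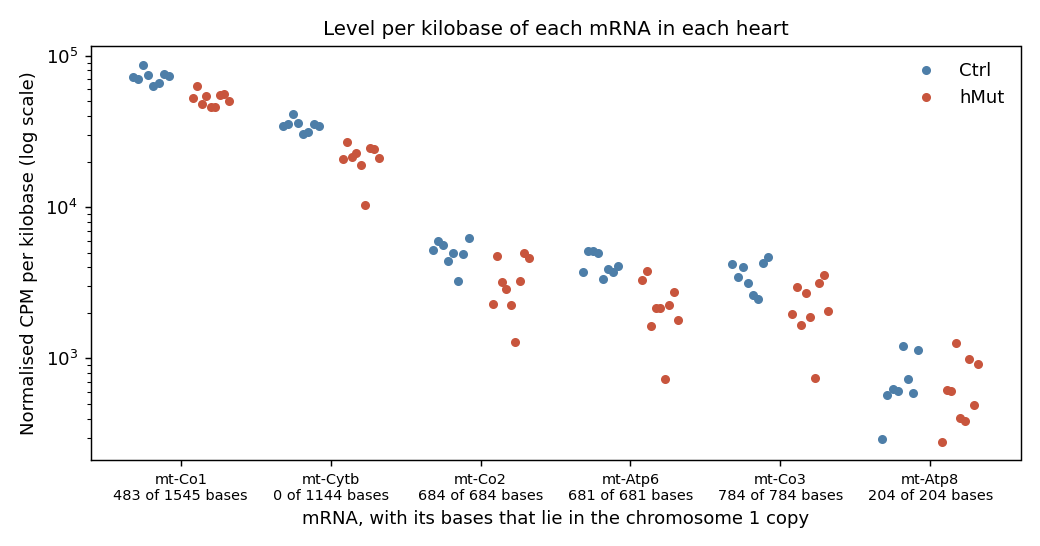
Normalised CPM per kilobase of gene (log axis) of the 6 mRNAs, 1 point per heart (8 Ctrl, 9 hMut), with the number of bases of each mRNA that lie in the chromosome 1 copy under its name. In Ctrl hearts *mt-Co1* and *mt-Cytb* averaged 72836 and 34818 CPM per kilobase, and the 4 mRNAs inside the copy averaged 723 to 5068.

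Reads were also counted on the annotated nuclear copies of 4 members. *Gm28661*, the copy of *mt-Co2*, had 10478 to 45672 counts per library, *Gm10925*, the copy of *mt-Atp6*, 11054 to 61296, and *Gm28437*, the copy of *mt-Co3*, 11869 to 35362. Of the counts on gene and copy together, *mt-Co2* held 72.7% to 84.6% in Ctrl and 74.3% to 83.5% in hMut, *mt-Co3* 70.7% to 82.1% and 65.8% to 82.4%, and *mt-Atp6* 67.5% to 79.7% and 47.9% to 75.1%. *mt-Co1* held at least 99.4% against *Gm29216*, which had 9278 to 26505 counts. *Gm29216* matches only 483 of the 1545 bases of *mt-Co1*, so this share is not comparable with those of the other members. A copy of all 1545 bases on chromosome 2, *Gm13340*, was 97.6% identical to *mt-Co1*. It had 23488 counts over all libraries and was not used in the test that follows. In an exact permutation test over hearts, chosen after seeing the data, the log2 ratio of member to copy did not differ beyond the spread for any of the 4 (adjusted p = 0.445 for *mt-Atp6* and *mt-Co3* and 0.977 for *mt-Co1* and *mt-Co2*, over 4 tests).

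The comparison of hMut with Ctrl asked how the mRNA side of these complexes stood in hearts whose cardiomyocytes express the proofreading-deficient polymerase. *mt-Cytb*, *mt-Co1* and *mt-Atp6* were lower in hMut, *mt-Co2* and *mt-Co3* had fold changes of similar size that did not pass the test, and *mt-Atp8* was not distinguishable between groups. Thus 3 of the 6 were called lower by edgeR's quasi-likelihood test at an adjusted p under 0.05, where 1.14% of all 16195 genes tested were called lower and 4.62% in either direction. The median log2 fold change was 0.00 over all genes tested.

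**Figure D2:**
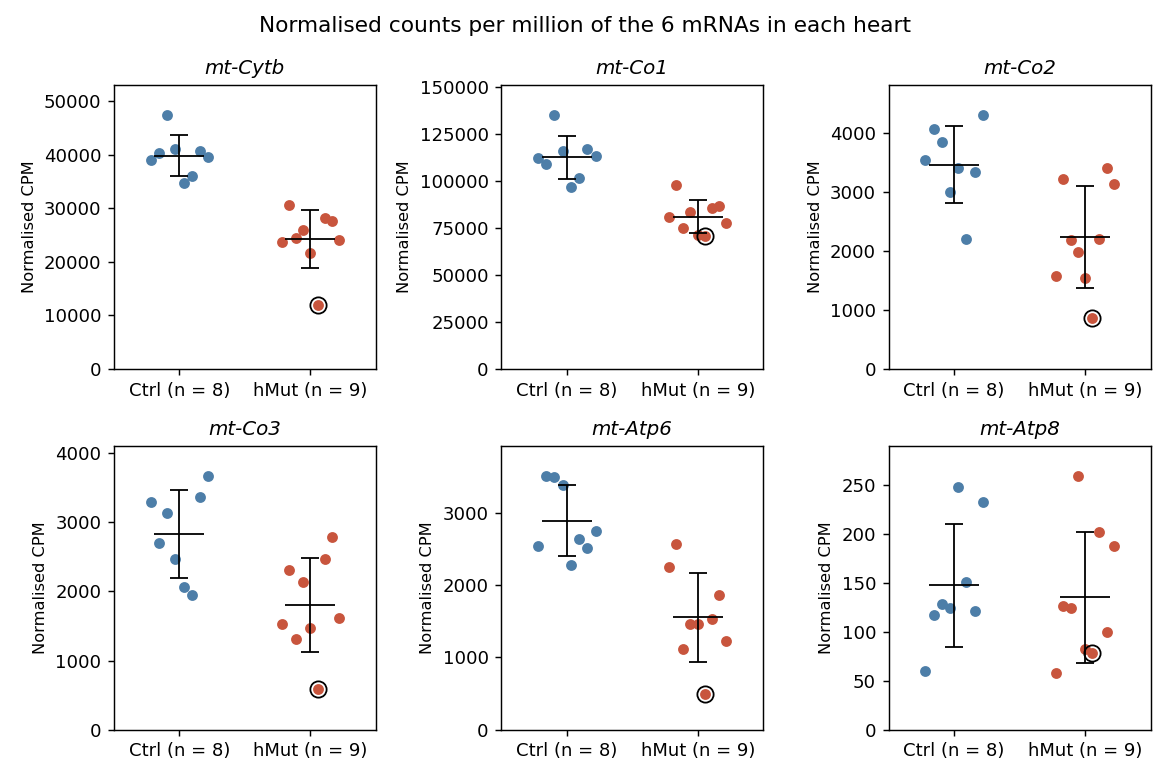
Normalised CPM of the 6 mRNAs in each heart (points), with the mean and SD of each group (black bars); the circled point is hMut 6. For *mt-Cytb* the 9 hMut hearts lie between 11898 and 30633 CPM and the 8 Ctrl hearts between 34680 and 47369, while for *mt-Atp8* the groups overlap throughout.

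In complex III, *mt-Cytb* ranged from 11898 to 30633 CPM in hMut (median 24459) and from 34680 to 47369 CPM in Ctrl (median 39913). Every hMut heart lay below every Ctrl heart, a separation that 0.0617% of genes tested (10 genes) had in this direction. *mt-Nd2*, *mt-Nd4* and *mt-Nd5* of complex I and the mitochondrial tRNA genes *mt-Te* and *mt-Ti* were among these 10. The means were 39832 CPM in Ctrl (SD 3786) and 24254 CPM in hMut (SD 5370), and the log2 fold change was -0.72 ± 0.14 (SE, edgeR adjusted p = 0.00743), or 60.9% of the Ctrl level. Without hMut 6, the heart with the lowest value by far, it was -0.63 (adjusted p = 0.000424).

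In complex IV, *mt-Co1*, the subunit that holds the site of oxygen reduction, ranged from 70797 to 97979 CPM in hMut (median 80953) and from 96867 to 134755 CPM in Ctrl (median 112530). The groups touched at a single pair of hearts, hMut 2 and Ctrl 5, and the other 8 hMut hearts lay below all Ctrl hearts. The log2 fold change was -0.47 ± 0.11 (SE, edgeR adjusted p = 0.0196), or 72.0% of the Ctrl level, and it was the called decrease with the smallest size among the members.

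*mt-Co2*, which carries the copper centre that accepts electrons from cytochrome c, ranged from 872 to 3404 CPM in hMut (median 2194) and from 2207 to 4301 CPM in Ctrl (median 3477). Its log2 fold change of -0.63 ± 0.22 did not pass the test (SE, edgeR adjusted p = 0.0896). *mt-Co3*, the third core subunit, ranged from 582 to 2786 CPM in hMut (median 1611) and from 1949 to 3668 CPM in Ctrl (median 2918), with a log2 fold change of -0.65 ± 0.23 (SE, edgeR adjusted p = 0.0935). All 9 hMut hearts lay below the Ctrl mean for both genes, but 3 of 9 for *mt-Co2* and 4 of 9 for *mt-Co3* lay within the Ctrl range. DESeq2 called both genes lower (adjusted p = 0.0318 and 0.0359), as did limma-voom with quality weights (0.0129 and 0.0299). The 95% intervals of the edgeR fold changes, -1.05 to -0.21 and -1.10 to -0.21 on the log2 scale, both held the value found for *mt-Co1*.

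In complex V, *mt-Atp6*, whose product forms part of the proton channel, ranged from 496 to 2575 CPM in hMut (median 1465) and from 2285 to 3513 CPM in Ctrl (median 2703). All hMut hearts but hMut 2, 8 in number, lay below the Ctrl range. The log2 fold change of -0.90 ± 0.22 was the largest decrease among the members (SE, edgeR adjusted p = 0.0280), at 53.7% of the Ctrl level. It was -0.78 without hMut 6 (adjusted p = 0.00817), and the call was lost when hMut 3, 5, 7 or 9 or Ctrl 2 was left out. With the reads of *Gm10925* added it was -0.79 (adjusted p = 0.0407).

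*mt-Atp8*, the small subunit read from the other frame of the same stretch, ranged from 57.6 to 259 CPM in hMut (median 124) and from 59.4 to 248 CPM in Ctrl (median 127). The ranges covered each other almost whole. Its log2 fold change of -0.13 ± 0.30 did not pass the test (SE, edgeR adjusted p = 0.809), and the 95% interval, -0.71 to 0.45, includes the decrease of *mt-Co1*. *mt-Atp8* had 2127 to 10841 counts per library. Its coefficient of variation was 42.5% within Ctrl and 49.6% within hMut, against 10.1% and 10.6% for *mt-Co1*.

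**Figure D3:**
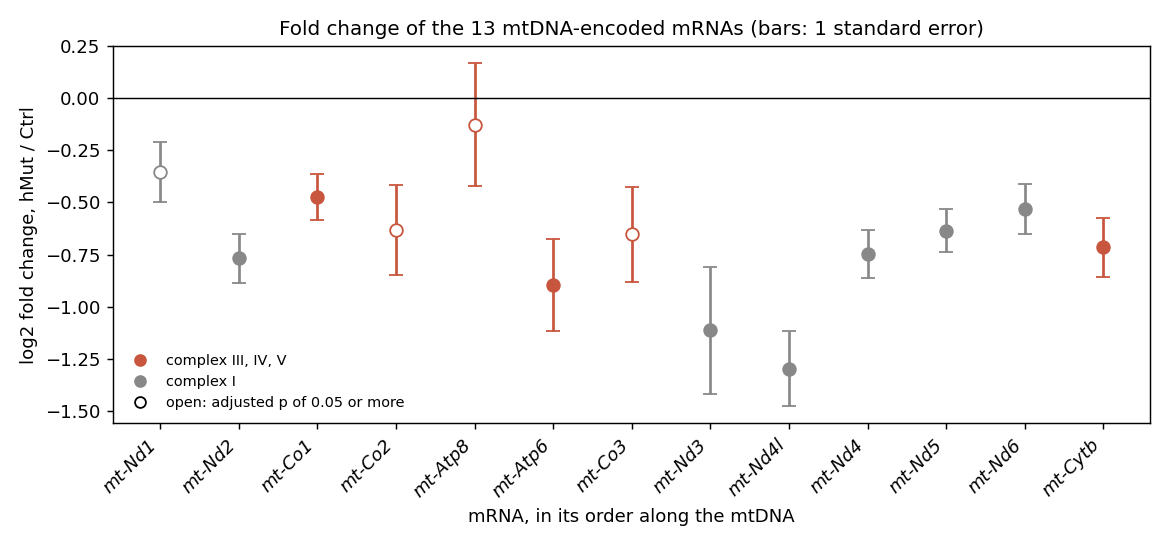
Log2 fold change of hMut over Ctrl for the 13 mtDNA-encoded mRNAs in their order along the mtDNA, with 1 standard error; filled points have an adjusted p under 0.05. All values are below 0, from -1.30 for *mt-Nd4l* to -0.13 for *mt-Atp8*.

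The mtDNA-encoded mRNAs of complex I gave the setting for these values. Of these 7, 6 were called lower by the same test and *mt-Nd1* was not (-0.35, edgeR adjusted p = 0.138), with a median log2 fold change of -0.75 and a range of -1.30 to -0.35. *mt-Nd4l* and *mt-Nd3*, which like the central members lie inside the chromosome 1 copy, had -1.30 ± 0.18 and -1.11 ± 0.30 (SE, edgeR adjusted p = 0.000396 and 0.0441). Of the 1378 bases of *mt-Nd4*, 876 also lie in the copy. The counts of these genes enter the complex I sums used below. *mt-Nd3* was at 468 CPM per kilobase in Ctrl, and the 95% interval of its fold change, -1.71 to -0.52, overlapped that of *mt-Atp8* given above.

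Relative to the pooled complex I mRNAs of its strand, *mt-Co1* stood higher in hMut. Its counts were divided by the summed counts of 6 complex I mRNAs of the same strand, which removes whatever changed all of them alike. Of these 6, *mt-Nd1* taken alone had a smaller decrease than *mt-Co1* (edgeR log2 fold changes of -0.35 and -0.47). The ratio ranged from 109% to 113% in Ctrl (SD of 0.02 on the log2 scale, n = 8) and from 112% to 158% in hMut (SD 0.14, n = 9), and 8 of 9 hMut hearts exceeded every Ctrl heart. The log2 difference was 0.15 (two-sided exact permutation test, adjusted p = 0.00469 over 6 members), and 0.10 without hMut 6 (adjusted p = 0.00559).

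By the same measure *mt-Cytb* was at 38.3% to 40.8% of the complex I counts in Ctrl and 26.6% to 42.1% in hMut. Of the hMut hearts 6 lay below the Ctrl range and 1 above it, and the log2 difference of -0.13 did not pass the test after adjustment (exact permutation p = 0.0353, adjusted p = 0.0706). The ratio of *mt-Atp6* differed by -0.38 with the same adjusted p (exact permutation p = 0.0311), that of *mt-Atp8* by 0.46 (adjusted p = 0.287), and those of *mt-Co2* and *mt-Co3* by -0.09 and -0.12 (adjusted p = 0.620 for both). With all other mtDNA-encoded mRNAs as the denominator, the differences of *mt-Cytb* and *mt-Atp6* were -0.20 and -0.43 and passed (exact permutation, adjusted p = 0.0021 and 0.0499). That denominator includes *mt-Co1*, the mRNA with the most counts, so these differences are not independent of the ratios of *mt-Co1* to both genes. With the counts on the nuclear copies added, the differences from complex I were -0.13 for *mt-Cytb* and -0.26 for *mt-Atp6*. Neither passed (exact permutation, adjusted p = 0.115 and 0.221).

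**Figure D4:**
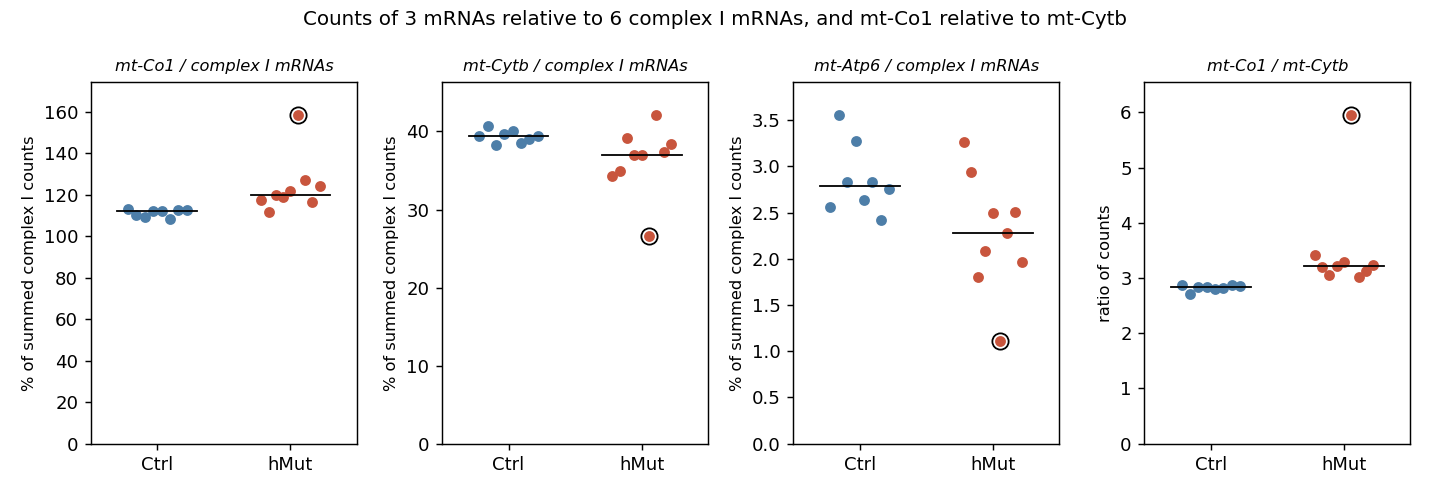
Counts of *mt-Co1*, *mt-Cytb* and *mt-Atp6* as a percentage of the summed counts of 6 complex I mRNAs, and the ratio of *mt-Co1* to *mt-Cytb* counts, 1 point per heart (8 Ctrl, 9 hMut); lines are medians and the circled point is hMut 6. The *mt-Co1* to *mt-Cytb* ratio lies between 2.71 and 2.88 in Ctrl and between 3.02 and 5.95 in hMut.

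Among the 15 pairs of members, 1 ratio differed between the groups, that of *mt-Co1* to *mt-Cytb*. These are the pair of most abundant members, and *mt-Cytb* shares no sequence with the chromosome 1 copy. In the Ctrl hearts there were 2.71 to 2.88 *mt-Co1* counts for each *mt-Cytb* count. The hMut hearts had 3.42, 3.20, 3.06, 3.22, 3.28, 5.95, 3.02, 3.12 and 3.23 in the order of their replicate numbers, all above the highest Ctrl heart. The log2 difference was 0.28 (exact permutation test, adjusted p = 0.00247 over 15 pairs). Without hMut 6 it was 0.18 (adjusted p = 0.00233), with 8 of 8 hMut hearts still above Ctrl. The ratio of *mt-Co1* to *mt-Atp6*, 0.53 higher in hMut on the log2 scale, did not pass after adjustment (exact permutation p = 0.0118, adjusted p = 0.0888). For the other 13 pairs the adjusted p was between 0.308 and 0.936, and log2 differences of up to 0.84 in size (*mt-Atp6* to *mt-Atp8*) did not exceed the spread between hearts.

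The spread among hMut hearts was wider in value than among Ctrl hearts for all 6 members, with an SD on the log2 scale of 0.40 against 0.13 for *mt-Cytb*, 0.69 against 0.24 for *mt-Atp6* and 0.15 against 0.14 for *mt-Co1*. Much of this rested on hMut 6: without it the hMut SD was 0.16 for *mt-Cytb*, 0.40 for *mt-Co3* (against 0.34 in Ctrl), 0.41 for *mt-Atp6* and 0.14 for *mt-Co1*. None of the 6 differences in spread passed an exact permutation test (lowest p = 0.122, adjusted p of 0.436 to 0.691 over 6 members).

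The hearts also differed from each other in the members as a group. Averaged over the 6 members, the deviation from the Ctrl mean on the log2 scale spanned -0.23 to 0.25 in Ctrl and -1.66 to -0.19 in hMut. The lowest was hMut 6, followed by hMut 5 at -0.88 and hMut 1 at -0.80, and hMut 2 was the highest. Ranked by the correlation of a gene's deviations from its group mean with those of the members over 17 hearts, the nuclear genes most like the members among 8625 with a mean of at least 10 CPM were *Gm28437*, the copy of *mt-Co3* (r = 0.88), *Slc26a10* (0.86) and *Gm37829* (0.85). Among the most unlike were *Dnmt1* (r = -0.93), the maintenance DNA methyltransferase, and *Scamp2* (-0.85). These are descriptions over libraries that share the distance of hMut 6. The 18 other mtDNA genes at that level had r between 0.01 (*mt-Nd4l*) and 0.88 (*mt-Nd1*). The members themselves had r between 0.51 (*mt-Atp8*) and 0.93 (*mt-Cytb*). Each member is part of the average it was correlated with, so its r is not comparable with those of the other genes.

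The nuclear genome encodes the remaining subunits of the same complexes, and their mRNAs had log2 fold changes between -0.36 and 0.33. These were smaller in size than those of *mt-Cytb*, *mt-Co1*, *mt-Co2*, *mt-Co3* and *mt-Atp6*, called or not, whereas *mt-Atp8* at -0.13 lay within that range. Of 44 nuclear-encoded subunits of complexes III, IV and V tested, 0 were called lower and 2 higher by edgeR, against 3 of 6 members called lower. Of the 44 fold changes 41 were below 0, with a median of -0.15 on the log2 scale, where the median over all genes tested was 0.00. At an unadjusted p under 0.05, 6 of the 44 were lower, where 11.3% of all genes were. DESeq2 called 0 of them lower (3.12% of all genes) and limma-voom with quality weights 2 (5.59% of all genes), so none of these counts of subunits passing a threshold sets them apart. The median was -0.16 for the 9 subunits of complex III, -0.16 for the 17 of complex IV and -0.15 for the 18 of complex V. The 2 called higher, a share near the 3.48% of all genes called higher, were *Cox8a* (84.2 ± 6.62 against 67.9 ± 4.31 CPM, log2 fold change 0.31, adjusted p = 0.00171) and *Cox6a1* (66.7 ± 8.33 against 53.0 ± 4.36 CPM, 0.33, adjusted p = 0.0152). They encode the forms of subunits VIII and VIa found in most tissues, and the muscle forms *Cox8b* and *Cox6a2* had values of -0.17 and -0.15 that did not pass (adjusted p = 0.311 and 0.300). Cardiomyocyte markers, a median of -0.25 over 8 genes, shared the sign of the nuclear subunits, and whether cell composition took part was not tested.

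**Figure D5:**
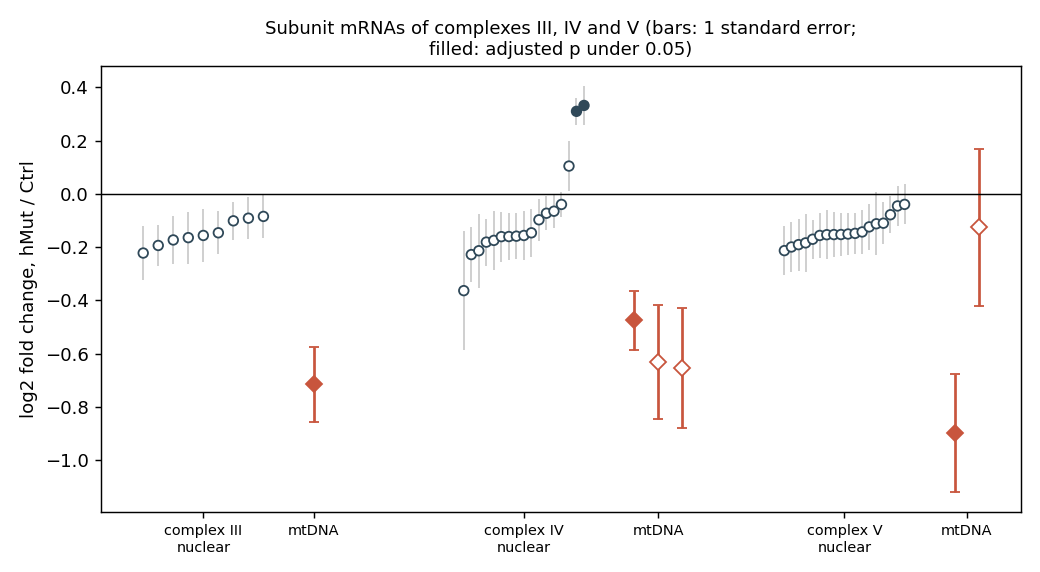
Log2 fold change of hMut over Ctrl for the nuclear-encoded subunits of complexes III, IV and V (circles) and the mtDNA-encoded members of the same complex (diamonds), with 1 standard error; filled symbols have an adjusted p under 0.05. Nuclear subunits lie between -0.36 and 0.33, and the 3 called members between -0.90 and -0.47. The uncalled members *mt-Co2*, *mt-Co3* and *mt-Atp8* lie at -0.63, -0.65 and -0.13.

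Of the factors that build these complexes, none was called by edgeR, where 4.62% of all genes tested were. The counts were 0 of 6 for complex III, 0 of 21 for complex IV and 0 of 5 for complex V. Their median log2 fold changes were -0.03, -0.03 and -0.10. Of 7 proteins that act on these mRNAs, among them LRPPRC and SLIRP, which bind and stabilise mitochondrial mRNAs, and the poly(A) polymerase MTPAP, 0 were called (median -0.06, range -0.21 to 0.13). At an unadjusted p under 0.05, 9 of these 39 genes passed, where 25.8% of all genes did. DESeq2 called 0 of them (9.33% of all genes), and limma-voom with quality weights called 3 (12.8% of all genes; *Cox15*, *Cox18* and *Cox19*, named after their values were seen).

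Each member was also set against a partner subunit of its complex within a group. In hMut, *mt-Co1* and *Cox4i1* had a Pearson r of 0.65 (exact permutation p = 0.0645, adjusted p = 0.129 over 6 relations; Spearman 0.55, p = 0.133), *mt-Cytb* and *Uqcrc1* 0.74 (p = 0.0238, adjusted p = 0.0713; Spearman 0.52, p = 0.162) and *mt-Atp6* and *Atp5f1b* 0.75 (p = 0.0189, adjusted p = 0.0713; Spearman 0.50, p = 0.178). None passed the adjusted threshold over all 9 hearts, but single hearts decided this. Without hMut 9, *mt-Cytb* and *mt-Atp6* had r of 0.95 and 0.89 (exact permutation, adjusted p = 0.0475 for both), and without hMut 3 *mt-Atp6* had 0.82 (adjusted p = 0.0201), whereas without hMut 6 the r of *mt-Cytb* was 0.37 and that of *mt-Atp6* 0.55 (adjusted p = 0.450 and 0.395). Without both hMut 6 and 9, the hearts farthest from the median of the partner, r was 0.70, 0.51 and 0.51. In Ctrl the same r values were -0.18, -0.43 and -0.51 (exact permutation, adjusted p of 0.297 to 0.687; Spearman -0.07, 0.21 and -0.45, adjusted p of 0.401 to 0.882), and -0.13, 0.55 and -0.07 without the 2 farthest hearts. The difference in r between the groups was not tested.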

How the data were processed

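Poly(A)-selected RNA libraries of mouse heart tissue, 9 hMut and 8 Ctrl, were sequenced. According to the submitters' processing notes and the study's methods, the authors trimmed reads with fastp, aligned them to GRCm39 (mm39) with HISAT2 2.2.1 and counted them per gene with featureCounts 2.0.6, and DESeq2 1.42.0 was used in the study. The deposited table holds raw counts of 56748 genes in 17 libraries. How strand, reads with several equal matches and reads in 2 overlapping genes were handled is not given in the sources used here.

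Members were the protein-coding chromosome MT genes with the 6 names; members and gene lists were chosen with earlier results of these data known. Counts were tested with edgeR 4.0.16 (R 4.3.3), TMM factors, filterByExpr (16195 genes kept) and the quasi-likelihood test of hMut against Ctrl, with Benjamini-Hochberg adjustment over all genes tested and a threshold of 0.05. CPM are counts per 1000000 after TMM scaling, and log2 CPM use a prior count of 2. Ratios and spreads per heart were tested with two-sided exact permutation tests over all splits of 9 against 8, and correlations within a group with exact permutations of the pairings, adjusted within each family. The text names the members, the complex I mRNAs, *Polg*, the nuclear copies, the partners *Cox4i1*, *Uqcrc1* and *Atp5f1b*, at most 3 called genes per list and direction, and the 3 nuclear genes most and least like the members, of which 1 is not reported here. Nuclear copies were found with BLAST 2.17.0+ (at least 90% identity over at least 100 bases). On counts simulated for hMut against Ctrl over 16195 genes, with 50 genes changed per fold size, 82% of the 0.5-fold, 46% of the 0.75-fold, 58% of the 1.5-fold and 90% of the 2-fold changes were recovered, with 9 false calls. Alternatives were DESeq2 1.42.0, limma 3.58.1 voom, RLE, upper-quartile and nuclear-only scaling, other filters, sex as a term, the replicate number as a block, each library left out, copies added, and *mt-Atp6* joined with *mt-Atp8*. Leaving out both hMut 6 and 9, adding copies in ratios between members and the test of member over copy were chosen after seeing the data. No 2 libraries held the same values (highest Spearman correlation between libraries 0.926), and each counted as 1 sample.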

Additional observations from a re-analysis of the deposited data

Results flagged for a closer look

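Within-group gaps were examined for 24 sets of values, the log2 CPM and the log2 ratio to complex I mRNAs of each member in each group, and in 5 of them 1 heart stood apart by Dixon's test at 95%. Chance alone marks about 1 in 20 such sets. All 5 were hMut 6. Its log2 CPM was 13.54 for *mt-Cytb*, 9.19 for *mt-Co3* and 8.95 for *mt-Atp6*, each the lowest of the 9 hMut hearts. Its log2 ratio to the complex I mRNAs was 0.66 for *mt-Co1*, the highest, and -1.91 for *mt-Cytb*, the lowest. The same heart held the highest summed myeloid marker level (1354 CPM, against 701 CPM in the next hMut heart), and the part of these cells in its values was not tested.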

How the results depend on the processing

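Of 913 values recomputed for 44 results under other settings, 839 kept their direction and their side of the threshold; the cause of the other changes was not tested. The 749 genes called became 1517 with DESeq2, 2081 with limma-voom and quality weights, 463 without the filter (more genes tested), 431 without both hMut 6 and 9, and 395 (without hMut 5) to 1792 (without hMut 2) with 1 library left out. The labels do not say whether the replicate numbers pair the hearts. Correlations of same-numbered deviations were -0.23 to 0.34, and only number 8 matched its own number best, which does not settle it. With the replicate number as a block, 185 genes were called by edgeR. *mt-Co1* (-0.47, adjusted p = 0.0922) and *mt-Atp6* (-0.97, 0.0672) were not among them, and *mt-Co2* was (-0.79, 0.0121). In an exact test that swaps the groups within pairs of hearts, 0 of 15 pairs of members differed. Over 8 pairs of hearts its smallest p is 0.00781, and a single ratio at that p has an adjusted p of 0.117. The ratio of *mt-Co1* to *mt-Cytb* had this adjusted p, with a difference of 0.29, so a ratio changed on its own could not pass. The ratios of *mt-Co2* to *mt-Co3* and to *mt-Cytb* became -0.058 and -0.038. *mt-Co2* and *mt-Co3* were called by DESeq2 (-0.63 and -0.65) and limma-voom (-0.67 and -0.61), and limma-voom called 2 nuclear-encoded subunits lower. Against all other mRNAs *mt-Cytb* and *mt-Atp6* differed by -0.20 and -0.43, and against complex I without *mt-Nd4l* and *mt-Nd4* by -0.17 and -0.42. All 4 passed. Against complex I with copies added they differed by -0.13 and -0.26, and neither passed. Without both hMut 6 and 9 the ratio of *mt-Co3* to complex I was 0.018, and *mt-Co2* to *mt-Co3* and *mt-Cytb* -0.11 and -0.010; with copies added *mt-Co2* to *mt-Co3* was -0.041.

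With 1 library left out, log2 fold changes spanned -0.73 to -0.53 for *mt-Co2* (called without hMut 2), -1.02 to -0.78 for *mt-Atp6* and -0.30 to 0.020 for *mt-Atp8* (above 0 without Ctrl 5), and *mt-Co1* and *mt-Cytb* stayed called throughout. Ratios to complex I spanned -0.19 to 0.0044 for *mt-Co3* (above 0 without hMut 6), -0.16 to -0.073 for *mt-Cytb* (called without hMut 7) and -0.45 to -0.26 for *mt-Atp6* (called without hMut 1 or 2). From 1 to 2 pairs differed and 0 to 1 nuclear subunits were called lower. Uncalled ratios that changed sign spanned -0.058 to 0.083 for *mt-Co2* to *mt-Co3*, -0.038 to 0.085 for *mt-Co2* to *mt-Cytb* and -0.052 to 0.078 for *mt-Co3* to *mt-Cytb*; the spread of *mt-Co1* spanned -0.0022 to 0.042. In Ctrl, r spanned -0.59 to 0.36 for *mt-Co1* and -0.69 to 0.78 for *mt-Cytb* with their partners, above 0 without Ctrl 3; in hMut they spanned 0.37 to 0.95 for *mt-Cytb* and 0.55 to 0.89 for *mt-Atp6*.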

Other observations

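*mt-Ts1*, the tRNA gene that shares its last 3 bases with the end of *mt-Co1* on the other strand, had at most 7 counts in any Ctrl library and 4 to 25935 in the hMut libraries, with a median of 47. The highest value was in hMut 7, and the next highest was 202. *mt-Co1* in hMut 7, at 85306 CPM, was within the range of the other hMut hearts. The genes share only these 3 bases, but the counting by strand is not described, so the strand of the reads on *mt-Ts1* is not known.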
